A study of Mus musculus with 6 samples.

Results

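The 10 long non-coding RNA genes described here are 8 small nucleolar RNA host genes, Gas5, Snhg1, Snhg3, Snhg5, Snhg6, Snhg8, Snhg12 and Snhg15, and the nuclear RNAs Malat1 and Neat1. They were taken by gene symbol from the 25189 symbols of the count table, and all 10 had a row. The rule uses no measured value, but the genes were chosen with earlier results of these data known. With chemerin-9 both nuclear RNAs were lower in every library, by 1.72-fold for Malat1 and 1.85-fold for Neat1, whereas the host genes moved in different directions and the group ranges of their summed level overlapped.

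Long non-coding RNAs of this kind act as RNA and are not translated into a known protein. In snoRNA host genes the exons are joined into a spliced RNA, while the introns are trimmed to small nucleolar RNAs (snoRNAs), which guide 2′-O-methylation (box C/D class) or pseudouridylation (box H/ACA class) of ribosomal and other RNAs. The spliced host RNAs carry short open reading frames, and several are known substrates of nonsense-mediated decay, which degrades RNAs on which translation stops early. Gas5 was first described as a transcript that accumulates in growth-arrested cells, and it is known to bind the glucocorticoid receptor. Malat1 is an abundant RNA of nuclear speckles, bodies rich in splicing factors, and Neat1 is the scaffold of paraspeckles, bodies built on its long isoform by RNA-binding proteins such as SFPQ, NONO and PSPC1.

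The samples were labelled as kidney of male wild-type C57BL/6 mice at Day 2, and each group had 3 libraries. The mice of one group had undergone ischaemia and reperfusion (I/R), in which the renal blood flow is stopped and then restored, and those of the other group had I/R and chemerin-9 (C9), a peptide from the carboxyl end of the chemokine-like protein chemerin. By the labels all 6 libraries came from injured kidney, and no uninjured group was analysed here. Which table columns are the chemerin-9 libraries was read from the column initials, a reading that no label could check. The labels give no age, dose or route, and nothing in them states whether the libraries are of separate mice, so the p-values reflect only how far these libraries vary, which may be technical.

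The libraries held 11217252 to 16938301 counts. The third I/R library was the deepest, and it differed from the first and second more than these did from each other; results that move by over 1.5 times without it are given both ways. The 18S ribosomal RNA row took 0.381% to 0.517% of the counts in I/R and 0.261% to 0.306% under chemerin-9, and mitochondrial genes took 2.81% to 2.94% and 2.56% to 2.64%. Each library carries its own batch value, so batch and group cannot be told apart. The kidney label was not borne out by defining genes: 5 of 10 nephron markers had a row in the table, and they summed to 6.65 to 7.06 CPM (counts per 1000000 counts of the scaled library) in I/R and 6.41 to 7.62 CPM under chemerin-9. The dividing-cell genes Top2a and Mki67 summed to 2730 to 2870 CPM in I/R and 2640 to 2730 CPM under chemerin-9, and the matrix genes Col1a1 and Col3a1 to 754 to 807 CPM and 802 to 836 CPM. Of 6 markers of vessels and blood 5 had a row, with sums of 1.76 to 3.19 CPM in I/R and 2.18 to 3.46 CPM under chemerin-9 and Hbb-bs at 0 in every library. In bulk RNA, fewer cells of a type and less RNA per cell cannot be told apart, which holds for every level below.

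The 8 host genes held 28 annotated snoRNA loci in GENCODE M21 (GRCm38). Gas5 (chr1:161034422-161038539, plus strand) held 9, Snhg1 (chr19:8723475-8726443, plus) 8, Snhg12 (chr4:132308623-132311024, plus) 4, Snhg3 (chr4:132348014-132353686, minus) 2 and Snhg5 (chr9:88521050-88522929, minus) 2. Snhg6 (chr1:9941959-9944118, minus), Snhg8 (chr3:123507552-123508404, minus) and Snhg15 (chr11:6525591-6528760, minus) held 1 each. With retained-intron transcripts left out, 20 of the 28 loci lay outside the exons, and among these were all 9 of Gas5. None of the 28 had a row in the table, so the values below describe the host RNAs and not their snoRNAs. The map of the host genes shows these positions.

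**Figure D1:**
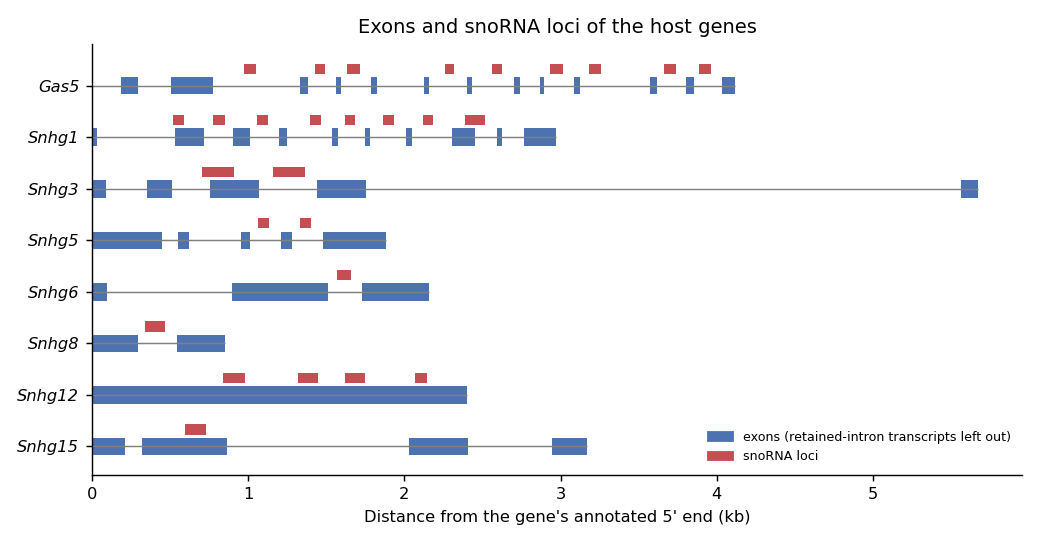
Exons (blue) and annotated snoRNA loci (red) of the 8 host genes against distance from the annotated 5′ end of each gene, in kb, from GENCODE M21 with retained-intron transcripts left out. Gas5 has 9 snoRNA loci, each between its exons, whereas the 4 loci of Snhg12 overlap the merged exons of its 10 annotated transcripts. The longest of these has 1538 bases in a span of 2402, so no transcript has the whole block as 1 exon. None of the 10 is typed as retained intron, and none was left out.

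One snoRNA is printed for each of the hosts Gas5, Snhg6, Snhg8 and Snhg15 to show what these genes carry. The first pair is of the box C/D class, with boxes C and D in capitals, and the second pair is of the box H/ACA class, with the ACA near the 3′ end in capitals. Sequences are of GRCm38, written 5′ to 3′ on the strand of the gene.
Snord47 of Gas5, chr1:161038082-161038158: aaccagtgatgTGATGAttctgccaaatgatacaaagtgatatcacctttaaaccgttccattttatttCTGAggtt
Snord87 of Snhg6, chr1:9942463-9942549: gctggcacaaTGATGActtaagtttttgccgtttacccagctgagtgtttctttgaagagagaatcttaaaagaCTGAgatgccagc
Snora24 of Snhg8, chr3:123507937-123508066: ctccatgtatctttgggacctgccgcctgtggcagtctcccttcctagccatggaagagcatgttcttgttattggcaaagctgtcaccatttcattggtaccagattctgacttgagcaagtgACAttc
Snora9 of Snhg15, chr11:6528033-6528165: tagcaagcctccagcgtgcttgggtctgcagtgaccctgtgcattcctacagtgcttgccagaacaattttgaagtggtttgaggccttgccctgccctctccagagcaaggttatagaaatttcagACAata
Only the loci of Snhg15 and Snhg12, 2 of those of Snhg1 and 1 of those of Snhg3 overlapped exons of the transcripts kept.

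Malat1 (chr19:5795690-5802672, minus) and Neat1 (chr19:5824708-5845478, minus) lie side by side, and each is annotated as a single exon at its full length. The 3′ end of Malat1 is known to be made by RNase P and to be protected by a helix that folds around an A-rich tract, in place of a poly(A) tail. That tract, with its run of 12 A in capitals, is shown because the libraries were made with an mRNA kit and the capture of such an RNA is not the same as that of a polyadenylated one.
Malat1, chr19:5795958-5796069: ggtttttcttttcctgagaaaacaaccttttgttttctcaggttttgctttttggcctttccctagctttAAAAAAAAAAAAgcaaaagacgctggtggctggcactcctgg

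Ribosomal protein genes and several snoRNA host genes are known to begin with a 5′ terminal oligopyrimidine (TOP) tract, a C followed by a run of C or T at the first transcribed bases. Starts of 8 of the 10 genes were matched by symbol in RefSeq's promoter table (GRCm38.p6), and Snhg6 and Neat1 had no entry. The bases from 40 before to 40 from the RefSeq start are printed for the start of each host gene that carries a TOP-like run, in capitals, and for the hosts Snhg1 and Snhg15, the ones higher under chemerin-9, which had none.
Gas5, chr1:161035126-161035205, plus: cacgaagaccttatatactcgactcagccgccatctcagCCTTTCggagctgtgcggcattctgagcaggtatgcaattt
Snhg8, chr3:123508297-123508376, minus: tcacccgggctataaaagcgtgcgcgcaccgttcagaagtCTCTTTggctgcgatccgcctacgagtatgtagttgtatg
Snhg12, chr4:132308638-132308717, plus: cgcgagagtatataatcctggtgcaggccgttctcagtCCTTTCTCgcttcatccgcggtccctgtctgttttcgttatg
Snhg5, chr9:88522858-88522937, minus: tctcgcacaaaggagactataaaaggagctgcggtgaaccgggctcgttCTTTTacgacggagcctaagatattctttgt
Snhg3, chr4:132353647-132353726, minus: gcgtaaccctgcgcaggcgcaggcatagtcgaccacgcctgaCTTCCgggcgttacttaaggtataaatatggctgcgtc
Snhg1, chr19:8723447-8723526, plus: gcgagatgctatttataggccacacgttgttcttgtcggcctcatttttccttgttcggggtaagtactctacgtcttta
Snhg15, chr11:6528721-6528800, minus: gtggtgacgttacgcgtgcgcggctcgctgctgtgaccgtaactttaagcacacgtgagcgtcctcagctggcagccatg
A TOP-like run was taken as a C followed by at least 4 C or T on the strand of the gene, with its first C within 10 bases of the RefSeq start. It was found in 5 of 7 host genes matched, in Gas5 at 1 of its 2 starts, against 30.7% of all 32851 promoters of the table and 34.4% of genes. Among protein-coding snoRNA hosts 9 of 27 had it, near the share of all genes, although 22 of the 35 listed are ribosomal protein genes. The search thus missed starts of known TOP genes, and a host without a run may still have a tract. A link between such a run and the change under chemerin-9 was not tested. With a window of 5 bases the count was 4 of 7 against 18.3% of promoters and 21.2% of genes. With 20 bases it was 5 of 7 against 49.4% and 53.3%. The letters TATA were searched on the strand of the gene from 40 to 16 bases before the start. They were present in Gas5, Snhg1, Snhg5, Snhg8 and Snhg12, 5 of 7 host genes. The shares to set beside this were 5.91% of promoters, 7.02% of genes and 2 of 27 protein-coding hosts. These matches describe letters in a window and not a site in use.

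Of the 10 genes, 9 had enough counts to be tested and Snhg3 had none in any library. With chemerin-9, 6 of the 9 passed an adjusted p of 0.05 in edgeR's quasi-likelihood test, where 51.7% of all 14184 tested genes passed. Snhg1 and Snhg15 were higher, 2 of 9 where 25.6% of all tested genes were higher, and Snhg6, Snhg8, Malat1 and Neat1 were lower, 4 of 9 where 26.1% were lower. The values of the groups did not overlap for 5 of the 9, against 58.5% of all tested genes. With 9 genes, nothing is read from these shares. The directions were mixed: both nuclear RNAs fell, while the 7 tested hosts split into 2 higher, 2 lower and 3 that did not pass. The plot of levels by library shows the 9 tested genes.

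**Figure D2:**
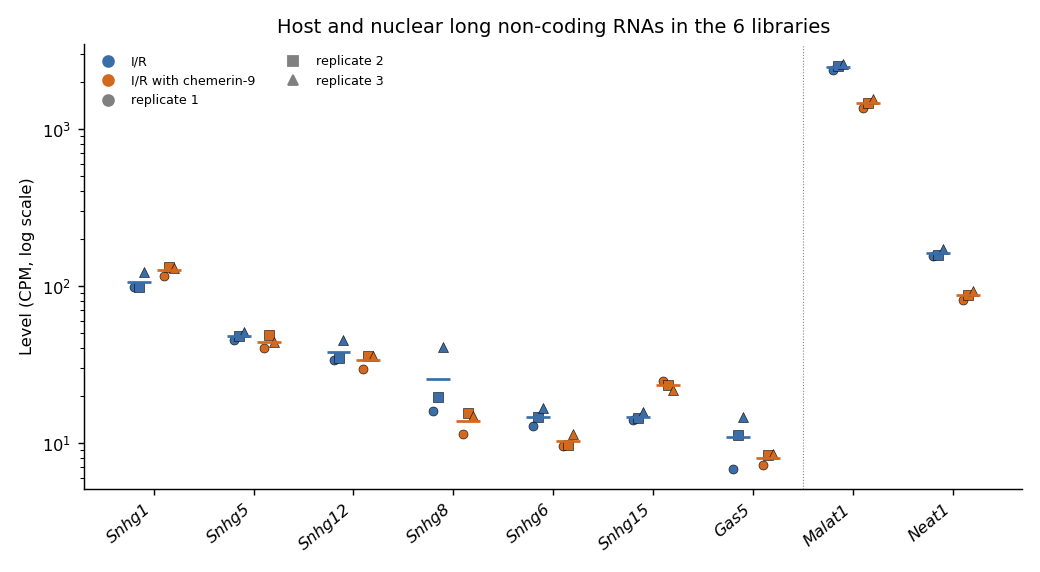
Level of each tested gene (Snhg3, at 0, is not drawn) in CPM on a log scale in the 6 libraries, with I/R and I/R with chemerin-9 in different colours, marker shapes for replicates 1 to 3 and a bar at the group mean. Malat1 and Neat1 are lower in all 3 chemerin-9 libraries, Snhg15 is higher in all 3, and the third I/R library lies above the other I/R libraries for Snhg8 and Gas5.

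Malat1, the speckle RNA, fell under chemerin-9. It stood at 2383, 2522 and 2584 CPM in I/R and at 1364, 1453 and 1541 CPM under chemerin-9. The lowest I/R library was far above the highest chemerin-9 library, and the spread within each group was small. The means were 2496 ± 103 and 1453 ± 88.2 CPM (SD, n = 3 each), a 1.72-fold lower level with a log2 fold change of -0.78 (SE 0.040, adjusted p = 1.05e-09 by edgeR). Its counts were 15655 to 42588 per library. Gm37376, annotated on the opposite strand over 453 bases of Malat1, has no row in the table, so its reads cannot be told apart where strand was not used.

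Neat1, the paraspeckle scaffold, fell in the same direction. Its level was 155, 157 and 172 CPM in I/R and 81.8, 87.6 and 92.8 CPM under chemerin-9. No library of one group reached the range of the other. The means were 161 ± 8.99 and 87.4 ± 5.54 CPM (SD, n = 3 each), a 1.85-fold lower level, with a log2 fold change of -0.88 (SE 0.053, adjusted p = 5.39e-09 by edgeR). The table has 1 row for Neat1, so its short and long isoforms were not told apart. The ratio of Malat1 to Neat1 was 15.4, 16 and 15.1 in I/R and 16.7, 16.6 and 16.6 under chemerin-9, so the pair kept nearly the same proportion while both levels fell. The shares of 18S and mitochondrial counts were also lower under chemerin-9, and their part in these changes was not tested.

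Snhg15, which carries Snora9, rose and was the host gene with the clearest separation upward. It stood at 13.9, 14.3 and 15.8 CPM in I/R and at 24.7, 23.5 and 21.8 CPM under chemerin-9. All 3 chemerin-9 libraries were above all 3 I/R libraries. The means were 14.7 ± 0.969 and 23.3 ± 1.47 CPM (SD, n = 3 each), 1.58-fold higher, with a log2 fold change of 0.66 (SE 0.094, adjusted p = 3.23e-05 by edgeR).

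Snhg1, host of 8 snoRNA loci, rose slightly. Its levels were 98.2, 98.4 and 123 CPM in I/R and 115, 131 and 131 CPM under chemerin-9. The third I/R library lay above the first chemerin-9 library, so the groups overlapped. The means were 106 ± 14.1 and 126 ± 9.09 CPM (SD, n = 3 each), with a log2 fold change of 0.24 (SE 0.076, adjusted p = 0.0161 by edgeR). DESeq2 did not call Snhg1 (adjusted p = 0.105), and its call was also lost with a robust prior in edgeR (0.149) and without I/R replicate 1 (0.0748), I/R replicate 2 (0.0850), chemerin-9 replicate 2 (0.0895) or chemerin-9 replicate 3 (0.0965). Without I/R replicate 3 the log2 fold change was 0.36, with an adjusted p of 5.30e-08 by edgeR.

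Snhg6, which carries Snord87, fell. It stood at 12.8, 14.5 and 16.7 CPM in I/R and at 9.59, 9.73 and 11.3 CPM under chemerin-9. The groups did not overlap. The means were 14.7 ± 2.00 and 10.2 ± 0.969 CPM (SD, n = 3 each), 1.44-fold lower, with a log2 fold change of -0.52 (SE 0.13, adjusted p = 0.00268 by edgeR), and -0.41 without I/R replicate 3. Of its exon bases 11.1% lie opposite Mcmdc2, which had at most 0.391 CPM in any library.

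Snhg8, which carries Snora24, also fell, but the size of its change rested on a single library. It had 16.1, 19.6 and 40.8 CPM in I/R and 11.3, 15.4 and 14.8 CPM under chemerin-9. The third I/R library was far above every other, and the lowest I/R value was only just above the highest chemerin-9 value. The means were 25.5 ± 13.4 and 13.8 ± 2.19 CPM (SD, n = 3 each), with a log2 fold change of -0.90 (SE 0.26, adjusted p = 0.00927 by edgeR). Without I/R replicate 3 the log2 fold change was -0.36 (adjusted p = 0.0131 by edgeR). DESeq2 did not call Snhg8 (adjusted p = 0.0892), and its call was also lost with a robust prior in edgeR (0.181) and without chemerin-9 replicate 1 (0.0541), and over all alternatives the adjusted p ran from 2.04e-17 to 0.181.

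Gas5, host of 9 snoRNA loci, did not pass the test. It stood at 6.81, 11.1 and 14.6 CPM in I/R and at 7.23, 8.33 and 8.53 CPM under chemerin-9. The first I/R library was the lowest and the third the highest of all 6, so the chemerin-9 values lay inside the I/R range. The means were 10.9 ± 3.92 and 8.03 ± 0.699 CPM (SD, n = 3 each), with a log2 fold change of -0.45 (SE 0.21, adjusted p = 0.0820 by edgeR). The value was -0.16 without I/R replicate 3 (adjusted p = 0.441 by edgeR) and -0.69 without I/R replicate 1 (adjusted p = 0.00150). Gas5 had 83 to 241 counts per library.

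Snhg5, host of Snord50a and Snord50b, had 44.9, 47.6 and 51.0 CPM in I/R and 40.1, 48.7 and 43.7 CPM under chemerin-9. Its groups overlapped, and the log2 fold change was -0.12 (SE 0.075, adjusted p = 0.212 by edgeR), or -0.07 without I/R replicate 3 (0.488). Snhg12, host of 4 snoRNA loci, had 33.7, 34.8 and 44.9 CPM in I/R and 29.5, 36.0 and 36.0 CPM under chemerin-9. Its groups overlapped too, with a log2 fold change of -0.16 (SE 0.10, adjusted p = 0.211 by edgeR). This value rested on I/R replicate 3, without which it was -0.01 (adjusted p = 0.906 by edgeR). Neither gene was shown to be the same in both groups.

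Snhg3, host of Snora73a and Snora73b, had a count of 0 in all 6 libraries, which allows up to 0.182 to 0.261 CPM by library (3 counts each, counting error only). Of its exon bases 13.7% are shared with Rcc1 on the same strand and 71.5% lie opposite Gm17300, together 83.3%. How reads in such overlaps were counted is not stated in what was used here, and the 0 cannot be read as absence of the RNA. Rcc1, which encodes the nucleotide exchange factor of Ran, stood at 69.6 ± 4.01 CPM in I/R and 74.7 ± 2.83 CPM under chemerin-9 (SD, n = 3 each, adjusted p = 0.124 by edgeR). Gm17300 had at most 0.350 CPM in any library. A search on both strands found 313 bases of it identical to Snhg3. Gm17300 lies opposite 705 exon bases of Snhg3 at the same place, so this match is no copy elsewhere in the genome.

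The third I/R library was higher than the mean of the other I/R libraries for each of the 9 genes with counts. The ratio was 2.29 for Snhg8, 1.63 for Gas5, 1.31 for Snhg12, 1.25 for Snhg1, 1.23 for Snhg6, 1.12 for Snhg15 and 1.10 for Snhg5. For the nuclear RNAs it was 1.05 for Malat1 and 1.10 for Neat1, the former below every host. The same library was also high for the 22 ribosomal protein genes that host snoRNAs, whose median was 435, 459 and 584 CPM in the I/R libraries and 319, 355 and 360 CPM under chemerin-9. The part of this library's composition in the host gene values was not tested.

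Summed over the host genes, the levels of the groups overlapped. The host sum was 226, 240 and 306 CPM in I/R and 238, 273 and 267 CPM under chemerin-9, means of 258 ± 42.8 and 259 ± 18.8 CPM (SD, n = 3 each). The sum of Malat1 and Neat1 was 2538, 2679 and 2756 CPM in I/R and 1446, 1540 and 1634 CPM under chemerin-9, means of 2658 ± 110 and 1540 ± 93.8 CPM. The nuclear sum was thus lower in every chemerin-9 library, while the host sums of the groups overlapped. Without the third I/R library the I/R mean of the host sum was 233 ± 9.91 CPM (SD, n = 2), and the overlap was narrow, with 240 CPM in the second I/R library and 238 CPM in the first chemerin-9 library. Nuclear counts per host count were 11.2, 11.1 and 8.99 in I/R and 6.08, 5.65 and 6.12 under chemerin-9, and these ranges did not overlap with or without the third I/R library, the lowest of I/R. The stacked levels show these sums by gene, in CPM that are not scaled by length.

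**Figure D3:**
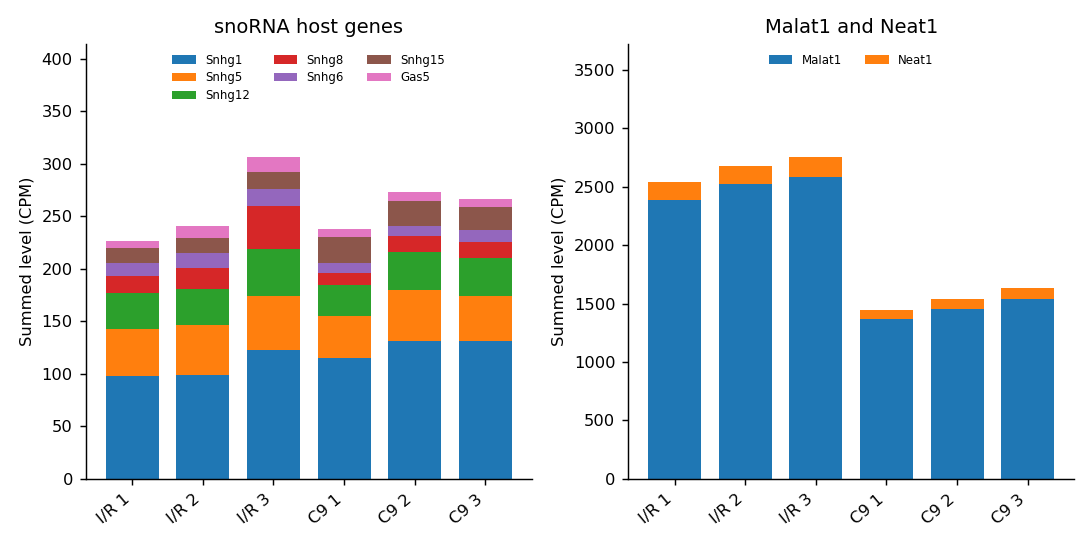
Summed level in CPM of the snoRNA host genes (one panel) and of Malat1 and Neat1 (other panel) in each of the 6 libraries, stacked by gene, with axes from 0 and of different height. The host sum runs from 226 to 306 CPM in I/R and from 238 to 273 CPM under chemerin-9, whereas the nuclear sum is 2538 to 2756 CPM in I/R and 1446 to 1634 CPM under chemerin-9.

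Levels of different genes were compared per length, as CPM per kb of the exon bases of all annotated transcripts, retained-intron transcripts included. In I/R, Malat1 was highest at 358 ± 14.8 CPM per kb, followed by Snhg1 at 35.8 ± 4.75, Snhg8 at 29.9 ± 15.7 and Snhg5 at 27.7 ± 1.79 (SD, n = 3 each). Snhg8 lay within the spread of both Snhg1 and Snhg5, while Snhg1 and Snhg5 differed beyond theirs by this length. Snhg12 at 15.7 ± 2.55, Snhg6 at 12.8 ± 1.75 and Snhg15 at 10.8 ± 0.713 CPM per kb came next, with no gap beyond the spread between neighbours, and Neat1 at 7.77 ± 0.433 and Gas5 at 2.89 ± 1.04 CPM per kb were lowest. The place of Neat1 depends on the isoform: over the 3004 bases of its short transcript, instead of 20771, it was 53.7 ± 2.99 CPM per kb. That was above every host on the lengths used here. Host levels over spliced exons alone were not computed, so a short length was given to Neat1 only and its place among the hosts is not settled.

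With chemerin-9 the order in CPM per kb was Malat1 at 208 ± 12.6, Snhg1 at 42.3 ± 3.06, Snhg5 at 25.5 ± 2.50, Snhg15 at 17.2 ± 1.08, Snhg8 at 16.2 ± 2.57, Snhg12 at 14.1 ± 1.54, Snhg6 at 8.91 ± 0.846, Neat1 at 4.21 ± 0.267 and Gas5 at 2.14 ± 0.186 (SD, n = 3 each). By the exon bases of all transcripts, Snhg15 thus stood below Snhg12 and Snhg6 in I/R and above both under chemerin-9, within the spread of Snhg8. The order of the hosts depends on the length used: over the longest transcript alone Snhg15 was 21.8 ± 1.43 CPM per kb in I/R and 34.5 ± 2.17 CPM per kb under chemerin-9, close to Snhg5 at 36.2 ± 3.55 CPM per kb in the latter. Snhg6 was then 18 ± 2.45 CPM per kb in I/R, so Snhg15 was not below Snhg6 in I/R by this measure. Snhg1 and Snhg5 were then within their spread in I/R, at 39 ± 5.17 and 39.2 ± 2.53 CPM per kb. On that length Gas5 was 4.25 ± 1.53 in I/R and 3.14 ± 0.273 CPM per kb under chemerin-9, the lowest host with counts by either length used. Both lengths take in retained-intron transcripts, which are 20 of the 25 annotated for Gas5 and 14 of the 18 for Snhg1. The spliced exons alone are shorter and were not used as a length, so the places of Gas5 and Snhg1 may rest on the annotation.

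Of 14 other long non-coding snoRNA hosts listed, 11 had a row and 9 were tested. As higher passed 4 (44.4%) and as lower 1 (11.1%), where 25.6% and 26.1% of all tested genes did, with a median log2 fold change of -0.04 beside -0.16 for the 7 tested hosts above and -0.004 for all tested genes. Without I/R replicate 3 these medians were 0.0026, -0.07 and -0.0021. Snhg17 rose from 54.2 ± 2.74 to 86.0 ± 2.79 CPM (log2 fold change 0.67), a size like that of Snhg15, and Snhg16 rose from 14.7 ± 2.43 to 22.2 ± 2.26 CPM (0.58). Snhg14, a long host RNA of the imprinted Prader-Willi and Angelman region, rose from 2.09 ± 0.452 to 3.70 ± 0.884 CPM (0.81). Zfas1, a host known to start with a TOP tract, fell from 95.8 ± 22.3 to 63.1 ± 8.15 CPM (-0.61, SD, n = 3 in each group), and in it the third I/R library was 1.46 times the mean of the other I/R libraries. Without that library the log2 fold change of Zfas1 was -0.40. The plot of fitted changes sets these beside the genes described here.

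**Figure D4:**
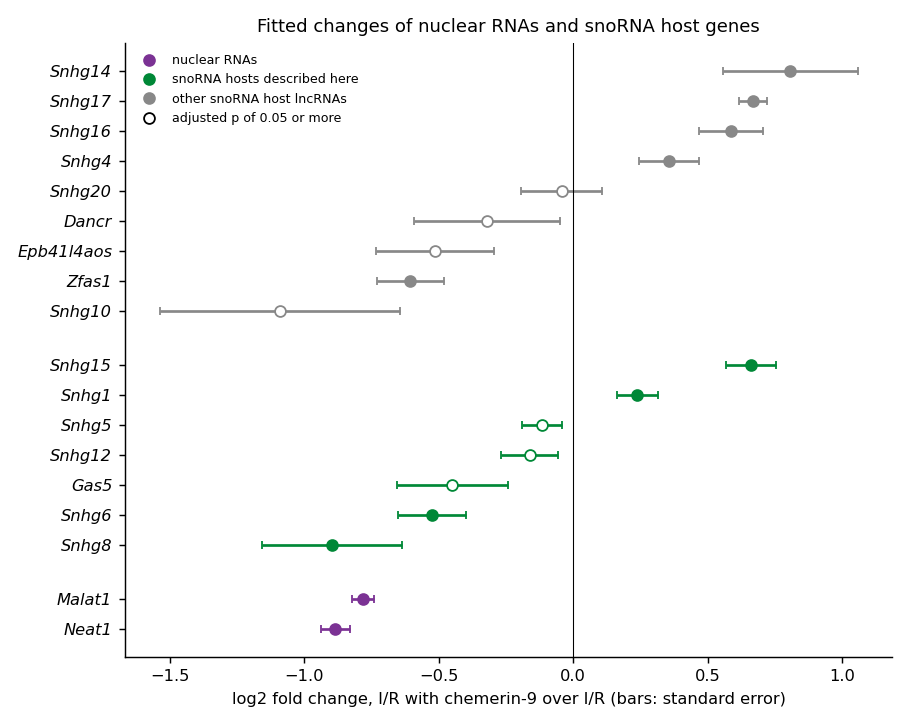
Log2 fold change of I/R with chemerin-9 over I/R (points, with bars of 1 standard error) for Malat1 and Neat1, the 7 tested snoRNA hosts and the other tested snoRNA host lncRNAs, open where the adjusted p was 0.05 or more. The nuclear RNAs lie at -0.78 and -0.88, and the 7 hosts described here run from -0.90 for Snhg8 to 0.66 for Snhg15. The other hosts run from -1.09 for Snhg10 to 0.81 for Snhg14. Snhg10 had means of only 0.97 CPM in I/R and 0.44 CPM under chemerin-9 and did not pass. The next lowest of the other hosts was Zfas1 at -0.61, above Snhg8.

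Protein-coding genes that carry snoRNAs in their introns were lower more often than higher; a difference from the long non-coding hosts was not tested. Of 35, 4 were higher (11.4%, against 25.6% of all tested genes) and 28 lower (80%, against 26.1%), with a median log2 fold change of -0.39. Without I/R replicate 3, 26 were lower and the median was -0.31. Ribosomal protein genes made up 22 of them, of which 21 fell (median -0.48), and the other 13 held 4 higher and 7 lower. Among those 13, Hspa8, the constitutive HSC70 chaperone, fell by 2.06 on the log2 scale, and Wdr43, a factor of small-subunit ribosome assembly, rose by 1.14 on the log2 scale from 128 to 282 CPM. The median level of the 35 genes was 444 to 595 CPM by I/R library, against 25.9 to 26.3 CPM for all tested genes. In the lists of snoRNP, decay, paraspeckle and speckle genes below it was also higher, at 50.2 to 247 CPM in I/R. Changes at higher counts are easier to call, and the part of this in the shares was not tested.

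Genes of snoRNP proteins and their assembly factors, which package the snoRNAs, were higher more often than lower: of 18 tested, 9 rose (50%, against 25.6% of all tested genes) and 1 fell (5.56%, against 26.1%), with a median log2 fold change of 0.19. Nop56, a core protein of box C/D snoRNPs, rose from 244 ± 6.1 to 483 ± 13.0 CPM (SD, n = 3 each; log2 fold change 0.98). Its partner Nop58 rose from 177 to 347 CPM (0.97), and Dkc1, the pseudouridine synthase of box H/ACA snoRNPs, rose from 70.7 to 104 CPM (0.56). These 3 genes are also in the list of protein-coding hosts, so the lists share them. Of 54 snoRNA rows that the table does hold, none from the 8 host genes, 10 were tested and 1 passed, as lower. Their counts summed to 252, 246 and 341 in I/R and 179, 199 and 231 under chemerin-9, too few in an mRNA library to describe mature snoRNAs.

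Of 16 genes of nonsense-mediated decay and the translation termination factors it uses, 10 were higher (62.5%, against 25.6% of all tested genes) and 2 lower (12.5%, against 26.1%), with a median log2 fold change of 0.18. Casc3, a protein of the exon junction complex, fell from 137 to 95.5 CPM (-0.52). The termination factors Etf1 and Gspt1 rose from 283 to 377 CPM (0.41) and from 155 to 197 CPM (0.34), and Smg5, which recruits the degradation machinery, rose from 186 to 242 CPM (0.38). The host RNAs did not move as a group beside these changes, and a link between them was not tested.

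Genes of paraspeckle proteins, beside the fall of Neat1, were higher more often than lower. Of 22, 10 rose (45.5%, against 25.6% of all tested genes) and 3 fell (13.6%, against 26.1%), with a median log2 fold change of 0.10; calls in either direction came to 59.1% against 51.7%. Pspc1 had 27.9 ± 0.688 CPM in I/R and 92.6 ± 2.23 CPM under chemerin-9 (SD, n = 3 each), a log2 fold change of 1.73. Sfpq, needed for paraspeckle assembly, rose from 168 ± 5.2 to 373 ± 2.70 CPM (1.15). Nono, their common partner and named here after its value was seen, was 631 CPM in I/R and 624 CPM under chemerin-9 and did not pass by edgeR (adjusted p = 0.717, log2 fold change -0.02). Hnrnpm rose from 267 to 397 CPM (0.57) and Rbmx from 30.7 to 61.8 CPM (1.01). The 3 that were lower were Tardbp, from 512 to 431 CPM (-0.25), Hnrnph3 (-0.22) and Dazap1 (-0.15), named after their values were seen.

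Genes of nuclear speckle proteins, beside the fall of Malat1, gave 8 higher (44.4%, against 25.6% of all tested genes) and 4 lower (22.2%, against 26.1%) of 18 tested, with a median log2 fold change of 0.06. The splicing factors Srsf3 and Srsf1 rose from 268 to 453 CPM (0.76) and from 309 to 515 CPM (0.74). Srsf10 rose from 226 to 343 CPM (0.60) and Srsf6 from 220 to 323 CPM (0.55). The 4 that were lower were Srrm2, from 1125 to 875 CPM (-0.36), Srrm1 (-0.25), U2af2 (-0.16) and Rnps1 (-0.15). Son did not pass (0.05, adjusted p = 0.232 by edgeR). Son and the lower genes were named after their values were seen. Transcripts of SR proteins include isoforms that are spliced to a form that is degraded, and a table with 1 value per gene does not tell isoforms apart.

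**Figure D5:**
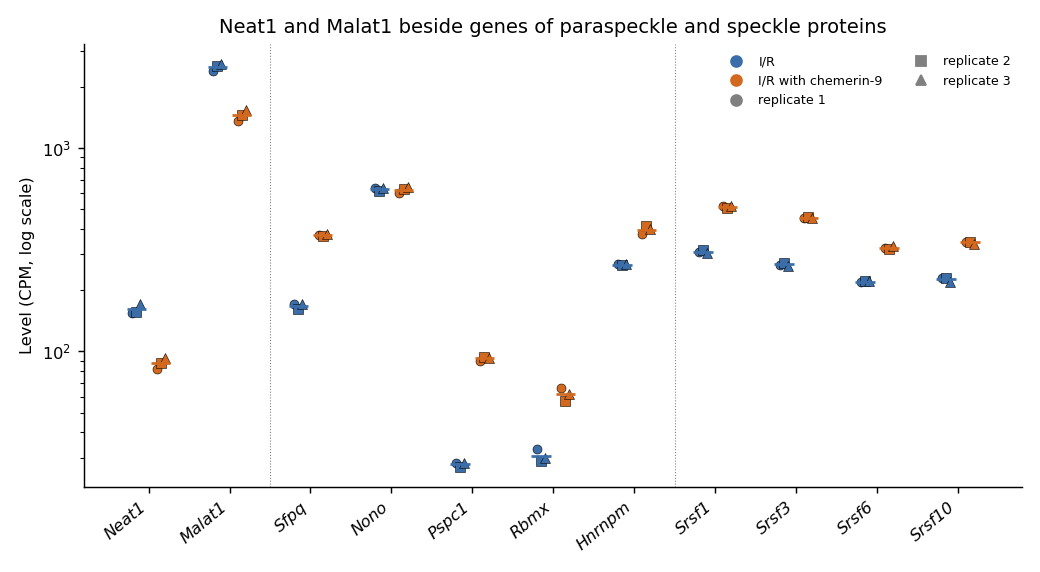
Level in CPM on a log scale, in the 6 libraries, of Malat1 and Neat1 (left of the first dotted line), genes of paraspeckle proteins (between the lines) and genes of speckle proteins (right), with colours for group, marker shapes for replicate and bars at group means. Malat1 and Neat1 are lower under chemerin-9, while Pspc1, Sfpq, Srsf3 and Srsf1 are higher in all 3 chemerin-9 libraries. The speckle protein genes drawn were all called higher, and the 4 called lower are not drawn. The paraspeckle protein genes drawn were called higher except Nono, and the 3 called lower are not drawn.

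The authors' deposited table gave the same direction as the values above for each of the 9 genes with counts. Its log2 fold changes were -0.78 for Malat1 and -0.89 for Neat1, with FDR values of 2.2e-86 and 1.62e-43. For the hosts, the authors' deposited table listed Snhg15 at 0.66 (FDR 3.74e-06), Snhg1 at 0.24 (FDR 0.0110) and Snhg6 at -0.53 (FDR 0.00632). Snhg8 at -0.89 had an FDR of 0.104 in the authors' deposited table, above the threshold that it passed in edgeR. Snhg3 carried a log2 fold change of 1 in the authors' deposited table, as did all 622 genes with no count, so that value is a placeholder.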

How the data were processed

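RNA-seq of 6 libraries was analysed from the deposited table of raw counts per gene symbol, made by the authors. The submitters' processing notes name HISAT2, HTSeq, DESeq 1.18.1 and mm10. No source used here states the strand setting or the annotation release. The table also holds the authors' deposited log2 fold change and FDR, an adjusted p-value per gene. Of its 25216 rows, 27 repeated a symbol and were dropped. Titles gave the groups and replicate numbers. For the treated libraries the titles all read C9, but the treatment field runs C9, C10, C11. The columns named IC were read as I/R with C9, which could not be checked against the labels, since these name other columns for those samples; every statement on chemerin-9 rests on that reading. Batch values are 6 consecutive dates, 1 per library.

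A quasi-likelihood fit of edgeR 4.0.16 (R 4.3.3) was run on the counts, on group alone, with TMM size factors, the filterByExpr filter and Benjamini-Hochberg adjustment over 14184 genes at 0.05. CPM are counts per 1000000 of the TMM-scaled library size. The alternatives were RLE, upper quartile and plain-total scaling, DESeq2 1.42.0, limma-voom (limma 3.58.1), a robust prior, other filters, a replicate block, mitochondrial and 18S rows left out, and each library left out. The per-length value of the short Neat1 transcript, and the gene lists and summed levels without I/R replicate 3, were added after the data were seen. Coordinates and exons came from GENCODE M21, as 97.5% of matched genes had the same start as in the table. Copies were searched with BLAST 2.17.0 at 95% identity over 50% of the shorter transcript. The fit was tested on simulated data.

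The 10 genes, the gene lists and the tests were chosen with earlier results of these data known. Named beside them are up to 4 genes per list with the smallest p, genes within 5 kb, and the 3 genes with a mean log2 CPM of at least 5 nearest in pattern to Gas5, Malat1 and Neat1. Nono, Son and the paraspeckle and speckle protein genes that were lower were added after the data were seen.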

Additional observations from a re-analysis of the deposited data

How the results depend on the processing

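No gene changed direction under any of the 16 alternatives. Snhg6, Snhg15, Malat1 and Neat1 passed under all 16, with log2 fold changes from -0.62 to -0.41, 0.62 to 0.73, -0.83 to -0.71 and -0.93 to -0.82, and Snhg5 and Snhg12 passed under none. The 2 host genes called higher became 1 with DESeq2 and 1 with a robust prior, and ran from 1 to 2 with each library left out, as the Snhg1 call was lost. The 2 called lower became 1 with DESeq2 and 1 with a robust prior, as the Snhg8 call was lost, and ran from 1 to 3 with each library left out: 1 without chemerin-9 replicate 1, and 3, with Gas5 added, without I/R replicate 1. The replicate numbers did not pair the libraries (correlations of 0.102, -0.052 and 0.042 for shared numbers). With the replicate number as a block, 7300 genes were called and Gas5 passed (log2 fold change -0.42, adjusted p = 0.0292 by edgeR); it also passed when low-count genes were not filtered out (adjusted p = 0.00446). Plain library totals moved the median log2 fold change of all genes from -0.004 to 0.065 and the share of calls that were higher from 49.6% to 60.7%, with no call among the 10 genes changed. DESeq2 called 6312 of all genes. Low counts limit Gas5, Snhg6, Snhg8 and Snhg15, and 3 libraries per group of unknown independence limit all values.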

Other observations

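Long non-coding RNAs that host no snoRNA moved in both directions. Of 24 listed, 14 had a row and 11 were tested; 4 were higher (36.4%) and 2 lower (18.2%), against 25.6% and 26.1% of all tested genes, with a median log2 fold change of 0.06, or 0.13 over 12 tested without I/R replicate 3. Kcnq1ot1, a nuclear RNA that silences imprinted genes, had 46.9, 45.8 and 43.7 CPM in I/R and 89.8, 89.6 and 95.3 CPM under chemerin-9. It was higher in every chemerin-9 library, with a log2 fold change of 1.01 (SE 0.052, adjusted p = 1.10e-09 by edgeR), opposite in direction to Malat1 and Neat1. Norad, a cytoplasmic RNA that binds Pumilio proteins, fell from 248 ± 10.9 to 178 ± 1.27 CPM (SD, n = 3 each; log2 fold change -0.48), and Firre, a nuclear RNA, fell from 65.2 to 51.1 CPM (-0.35). Pvt1, the neighbour of Myc, rose from 36.3 ± 1.17 to 45.1 ± 1.45 CPM (0.32). Among all 923 tested genes that GENCODE M21 lists as long non-coding, 169 were higher and 122 lower, 31.5% in all, against 51.7% of all tested genes. Their median level was 1.88 to 2.01 CPM by library, against 25.7 to 26.3 CPM for all tested genes. Changes at such low counts are harder to call, and the part of this in the lower share was not tested.

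The coding genes given here, within 5 kb of the 10 genes, did not share one direction with them. Slc3a2, the heavy chain of amino acid transporters including SLC7A11, starts 105 bases from Snhg1 on the opposite strand, and both rose, Slc3a2 from 411 ± 6.58 to 470 ± 16.2 CPM (SD, n = 3 each; log2 fold change 0.19). Frmd8, next to Neat1, fell with it from 49.5 ± 0.882 to 35.7 ± 2.52 CPM (-0.47). Zbtb37, which overlaps Gas5 on the opposite strand without sharing exon bases, fell from 75.9 to 62.2 CPM (-0.29, adjusted p = 8.30e-04 by edgeR). Prss12, 954 bases from Snhg8, rose from 1.51 to 2.51 CPM (0.74, adjusted p = 0.0299 by edgeR, and 0.0675 without I/R replicate 3) while Snhg8 fell. Phactr4, near Snhg3, rose from 59.2 to 66.2 CPM (0.16), a call lost without I/R replicate 3 (0.08, adjusted p = 0.249 by edgeR), and Trnau1ap near Snhg12 did not pass (adjusted p = 0.703 by edgeR).

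Among 6423 tested genes, those nearest in pattern over the 6 libraries were ranked by the root mean square difference of centred log2 CPM. For Malat1 these were Rdh11 (0.034), Sat1 (0.0413) and Hspb8 (0.0482). For Neat1 they were Pip4p1 (0.0412), Vat1 (0.0472) and Selenok (0.0487). For Gas5 the nearest were less close, Myl12a (0.162), Rps27l (0.166) and Snrpg (0.167), and each was highest in the third I/R library, as Gas5 was.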
